A study of Mus musculus with 6 samples.

Results

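The genes described here are forkhead transcription factors, a family of DNA-binding proteins, read out with RNA sequencing in differentiated cells of the J1 mouse embryonic stem cell line (129S4/SvJae strain). The members are the rows whose transcription factor family is given as Fork_head in the deposited tables, without Foxh1, and there are 9 of them among 2031 genes: Foxa1, Foxc1, Foxc2, Foxd1, Foxd2, Foxf1, Foxf2, Foxp1 and Foxp2. The differentiated cells came from embryoid bodies, cell aggregates formed in hanging drops over 3 days on the way to heart muscle. NC names the 3 control libraries, from a conventional incubator, and MF the 3 libraries from a static magnetic field incubator. Both groups derive from the same line, and the labels name no allele, transgene or drug. How strong the field was, how long it acted and when cells were collected is not stated in the labels. The libraries are described as biological triplicates, without a statement of how they were separated.

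The table analysed holds only genes that its authors had already selected as different, with adjusted p-values up to 0.0499 in the authors' deposited table. Every member therefore differed by selection, and the tests below describe its size and spread on the same libraries. Other forkhead genes outside the selection were not analysed here. Of the deposited genes, 63.2% were higher in MF, which is the background for the members' direction. The Fork_head row left out of the group went the other way. Foxh1, a DNA-binding partner of Smad proteins in Nodal signalling, fell 3.57-fold from a mean of 33.9 FPKM in NC to 9.49 FPKM in MF. Foxr1 is a forkhead gene by name that carries no family label in the table. It fell 6.72-fold, from 1.75 to 0.259 FPKM, with an NC count of 43, 107 and 39 and an MF count of 2, 25 and 3 in replicates 1 to 3. FPKM is a count divided by gene length and by library size, a scale on which levels of different genes can be compared.

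Forkhead proteins bind DNA through a winged-helix domain, and several of them can open closed chromatin for other factors. In the mouse embryo Foxc1 and Foxc2 act together in paraxial mesoderm, the cardiac outflow tract and blood vessels. Foxf1 and Foxf2 mark the mesenchyme around the gut and lung, where they respond to hedgehog signals. Foxd1 marks the stromal progenitors of the kidney, Foxa1 is a pioneer factor of endoderm, and Foxp1 and Foxp2 are repressors with roles in heart, lung and brain.

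The libraries held between 14929232 and 19176383 counts. The deposited genes took 5.68% to 6.09% of these in NC and 10.4%, 6.18% and 9.31% in MF replicates 1 to 3. MF replicate 2 stood apart: of the 1026 genes called higher, 83.2% had their lowest MF level there. NC replicate 2 held the lowest NC level of 72.6% of them. For the 15 of 19 listed cardiomyocyte markers in the table, the sum lay between 40.3 and 86.8 FPKM in NC and was 735, 170 and 377 FPKM in MF replicates 1 to 3. For 11 of 14 fibroblast and mesenchyme markers it lay between 184 and 350 FPKM in NC and was 1464, 309 and 1193 FPKM in MF, so that the groups overlapped. The 4 of 18 pluripotency markers summed to 324, 750 and 274 FPKM in NC replicates 1 to 3. In MF replicates 1 to 3 they summed to 68.8, 185 and 65.5 FPKM, so replicate 2 was the highest library of each group. For endothelium the sum of 6 of 10 markers lay between 13.9 and 43.7 FPKM in NC and between 24.3 and 45.6 FPKM in MF. The highest NC sum was that of replicate 2, where Pecam1 alone held 38.2 FPKM. Pecam1 was lower in MF, while 5 of the 6 markers were higher, 4 of them without overlap between the groups. For neural crest and glia (2 of 10 markers) the sum lay between 0.656 and 2.37 FPKM in NC and between 6.97 and 20.6 FPKM in MF. Germ cell markers (5 of 8) summed to 49.8, 169 and 39.9 FPKM in NC replicates 1 to 3. In MF replicates 1 to 3 they summed to 3.31, 15.5 and 7.29 FPKM, again highest in replicate 2 of each group. None of the marker genes in the table was at 0 in all NC libraries. In bulk samples, fewer cells of a type and less RNA per cell cannot be told apart, and the part of cell composition in the forkhead values was not tested.

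Start regions are shown for Foxc1 and Foxf2, neighbours on chromosome 13. Both had their lowest MF level in replicate 2, as did 83.2% of the genes called higher. The start regions of Foxd1 and Foxa1, which had their highest MF level there, are shown as well. Each window covers 250 bases before to 50 bases after the gene's start in RefSeq (GRCm38.p6, the assembly of mm10), 5′ to 3′ on the gene's strand. Capitals mark GGGCGG, the GC box bound by Sp and Klf factors, and TGTTTAC, a core forkhead site, on either strand.
Foxc1, chr13:31806396-31806695, plus strand: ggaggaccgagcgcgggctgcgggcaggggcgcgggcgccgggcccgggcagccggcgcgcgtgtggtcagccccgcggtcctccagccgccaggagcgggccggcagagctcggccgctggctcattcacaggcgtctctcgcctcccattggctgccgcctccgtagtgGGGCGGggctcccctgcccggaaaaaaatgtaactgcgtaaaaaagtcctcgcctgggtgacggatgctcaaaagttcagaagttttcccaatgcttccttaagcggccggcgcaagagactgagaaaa
Foxf2, chr13:31625566-31625865, plus strand: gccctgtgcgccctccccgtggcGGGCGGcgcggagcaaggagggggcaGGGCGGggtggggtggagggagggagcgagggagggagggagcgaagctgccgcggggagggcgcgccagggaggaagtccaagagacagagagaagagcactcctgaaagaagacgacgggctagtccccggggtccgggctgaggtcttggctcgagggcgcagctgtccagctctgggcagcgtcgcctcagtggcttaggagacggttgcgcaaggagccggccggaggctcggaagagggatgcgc
Foxd1, chr13:98353995-98354294, plus strand: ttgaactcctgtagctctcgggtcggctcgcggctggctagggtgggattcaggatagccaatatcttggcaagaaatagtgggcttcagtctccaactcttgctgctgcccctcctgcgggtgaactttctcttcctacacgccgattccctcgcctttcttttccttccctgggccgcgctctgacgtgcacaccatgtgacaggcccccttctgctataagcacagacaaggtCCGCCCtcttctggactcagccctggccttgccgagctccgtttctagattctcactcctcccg
Foxa1, chr12:57546062-57546361, minus strand: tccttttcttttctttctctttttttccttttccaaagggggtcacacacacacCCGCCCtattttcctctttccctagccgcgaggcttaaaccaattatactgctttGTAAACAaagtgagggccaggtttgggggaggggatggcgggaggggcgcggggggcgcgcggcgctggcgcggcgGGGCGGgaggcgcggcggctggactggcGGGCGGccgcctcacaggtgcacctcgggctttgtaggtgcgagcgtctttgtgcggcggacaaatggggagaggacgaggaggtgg

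A window was held for 6 members, with 3 start regions for Foxp1. The Foxa1 window (57546062 to 57546361) lies inside the deposited bounds of that minus-strand gene (57540628 to 57546916). It is thus downstream of the start that those bounds give. The GC content was 67.3% for Foxc1, 71.3% for Foxf2, 57.7% for Foxd1 and 62.3% for Foxa1, against a median of 52.7% over 32851 windows of the same length. The Foxc1 window held 32 CpG dinucleotides and that of Foxd1 held 15, against a median of 7. GGGCGG was present in all 4 printed windows, and 35.7% of all windows hold it. It occurred 3 times for Foxa1 and 2 times for Foxf2. TGTTTAC, which 3.65% of all windows hold, was found only in the Foxa1 window among the 8 member windows. The box TATAAA, present in 13.6% of all windows, was in none of the 8. These matches describe letters in the windows, and no binding was measured.

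The comparison of MF with NC asked which genes differ between cells cultured with and without the field. The 9 members were higher in MF throughout. In each of them the lowest MF library lay above the highest NC library, which was also true of 58.4% of the tested genes. Of the 8 members that averaged 0.5 FPKM or more, 8 rose in the quasi-likelihood test of edgeR, with p-values adjusted by Benjamini-Hochberg across 1651 tested genes, and 0 fell, also at an unadjusted p under 0.05 and in DESeq2. The same test called 62.1% of tested genes higher, 35.4% lower and 97.5% in either direction. The count of called members therefore adds little to the selection itself. The members' median log2 fold change was 2.62, against 1.63 for the genes called higher and 1.22 for all tested genes.

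**Figure D1:**
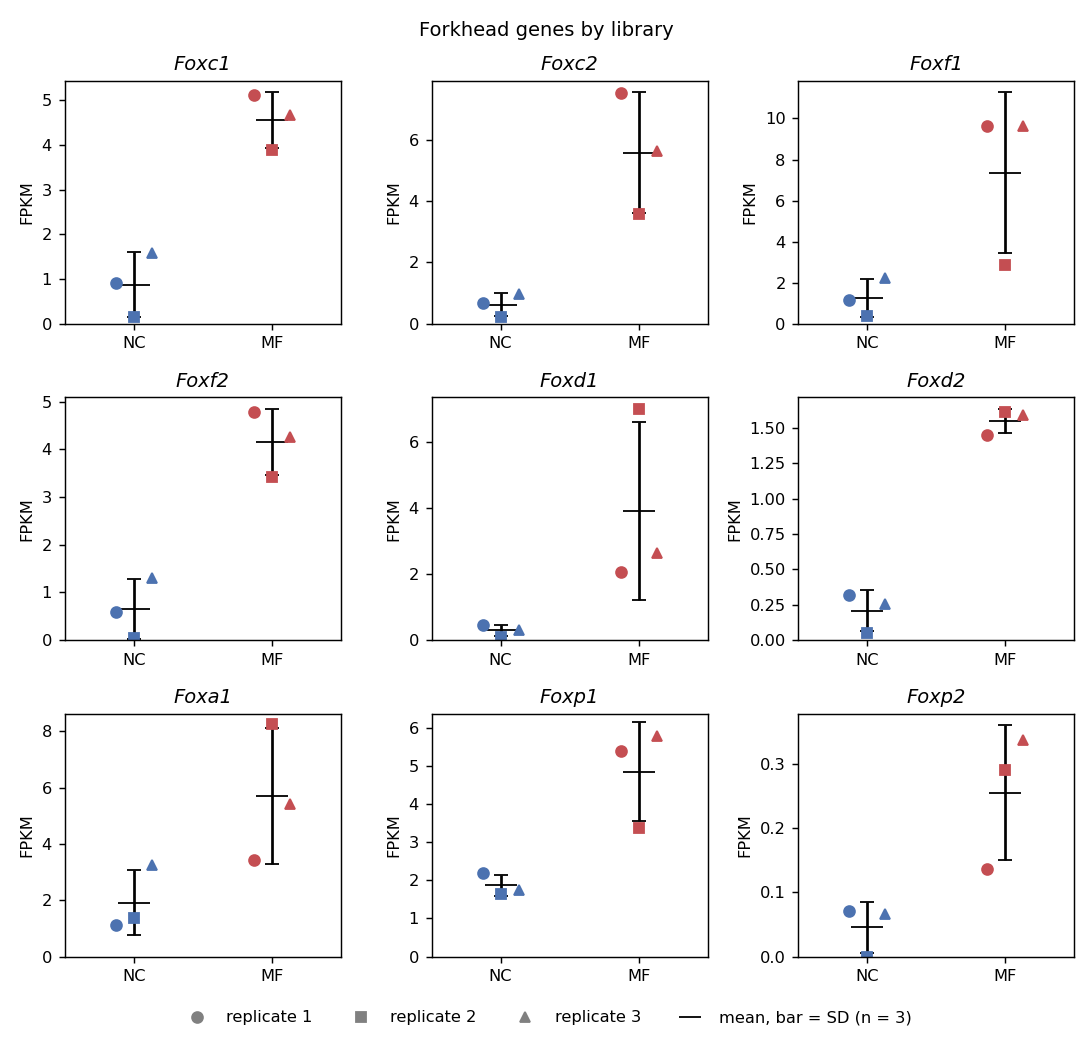
FPKM of the 9 forkhead genes in each library, with an own axis from 0 for each gene; symbols are replicates 1 to 3, horizontal lines are group means and bars are SD (n = 3). In each panel the 3 MF libraries sit above the 3 NC libraries, with the smallest ratio of lowest MF to highest NC level for Foxa1 (1.06), while Foxd1, Foxa1 and, narrowly, Foxd2 are highest in MF replicate 2.

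Foxc1 and Foxc2 are close relatives whose products have overlapping tasks in somites and vessels. Foxc1, a gene of 1 exon (mm10 chromosome 13, 31806633 to 31812476), stood at 0.907, 0.149 and 1.58 FPKM in NC replicates 1 to 3 and at 5.11, 3.89 and 4.68 FPKM in MF replicates 1 to 3. The NC libraries spread widely, from 14 to 138 counts, while the MF libraries lay close together. The group means were 0.879 ± 0.717 and 4.56 ± 0.620 FPKM (SD, n = 3), and Foxc1 rose 5.19-fold (edgeR log2 fold change 2.37, SE 0.70, adjusted p = 0.0236). The NC spread touched the size: without NC replicate 3 the fold was 8.63, and without NC replicate 1 the call was lost (adjusted p = 0.0507).

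Foxc2, also of 1 exon (mm10 chromosome 8, 121116171 to 121118895), stood at 0.680, 0.228 and 0.959 FPKM in NC and at 7.50, 3.56 and 5.64 FPKM in MF. NC replicate 2 and MF replicate 2 were the lowest libraries of their groups, and the lowest MF value was 3.71 times the highest NC value. Foxc2 rose 8.93-fold, from 0.622 ± 0.369 to 5.57 ± 1.97 FPKM (log2 fold change 3.16, SE 0.63, adjusted p = 0.0119). The FPKM ratio of Foxc1 to Foxc2 was 1.33, 0.653 and 1.65 in NC and 0.682, 1.09 and 0.830 in MF. Neither gene thus led in every library of a group, and the ratio did not differ between groups beyond its spread (exact permutation test over libraries, two-sided, p = 0.5).

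Foxf1 and Foxf2 form the second pair. Foxf1 (mm10 chromosome 8, 121084386 to 121088144; 2 exons) stood at 1.16, 0.360 and 2.22 FPKM in NC and at 9.63, 2.86 and 9.62 FPKM in MF. MF replicates 1 and 3 were nearly equal, whereas MF replicate 2 was only 1.29 times the highest NC library. Foxf1 rose 5.90-fold, from 1.25 ± 0.932 to 7.37 ± 3.91 FPKM (log2 fold change 2.56, SE 0.72, adjusted p = 0.0225), and by 9.65-fold without NC replicate 3. MF replicate 2 was also the MF library with the lowest summed mesenchyme and cardiomyocyte markers given above.

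Foxf2 (mm10 chromosome 13, 31625816 to 31631403; 2 exons) had 22, 2 and 46 counts in NC and 217, 136 and 164 counts in MF. In FPKM these were 0.595, 0.0525 and 1.30 in NC against 4.79, 3.43 and 4.26 in MF. Unlike Foxf1, it was of similar height in the 3 MF libraries, with a ratio of highest to lowest of 1.40 against 3.37 for Foxf1. Foxf2 rose 6.39-fold (log2 fold change 2.68, SE 0.85, adjusted p = 0.0254). Its NC level rested on few counts, and without NC replicate 3 the fold was 12.8, while without NC replicate 1 the adjusted p was 0.0572. The ratio of Foxf1 to Foxf2 fell below 1 in MF replicate 2 alone, at 0.835, against 2.01 and 2.26 in the other MF libraries and 1.70 to 6.85 in NC. The groups did not differ in it beyond their spread (exact permutation p = 0.6).

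These genes lie in pairs of a FoxF and a FoxC gene on the same strand. Foxf1 starts 31.8 kb before Foxc2 on chromosome 8, with 1 annotated protein-coding gene, Mthfsd, lying between them, and Foxf2 starts 180.8 kb before Foxc1 on chromosome 13, with 0 between them. Mthfsd is outside the table and was not analysed here. The chromosome 13 pair, whose start regions are printed above, had a narrow range of ratios in MF: Foxc1 to Foxf2 was 1.07, 1.14 and 1.10, against 1.53, 2.83 and 1.21 in NC. Its MF values lay below all NC values, with an exact permutation p of 0.1, the smallest that 3 against 3 libraries can give. The NC ratios rest on few reads, with Foxf2 counts of 22, 2 and 46 in NC replicates 1 to 3, so their size is uncertain. With Foxf2 at 217, 136 and 164 counts in MF, counting error alone could spread the MF ratios more widely. Their narrow range therefore does not show that the 2 genes keep a fixed proportion. The chromosome 8 ratio of Foxc2 to Foxf1 was 0.779, 1.25 and 0.586 in MF and 0.584, 0.633 and 0.432 in NC, with overlapping groups (exact permutation p = 0.2, not paired). Within each of the 3 same-numbered pairs of libraries the MF ratio was the higher one. No label states that the numbers pair the libraries, and a paired difference was not tested. Across the 7 ratios compared, the smallest Benjamini-Hochberg adjusted value was 0.35. In the GENCODE annotation a long predicted gene on the same strand, Gm20388, spans Foxf1 and Foxc2, and Gm20696 overlaps Foxp1. No source used here says how the authors counted reads in such overlaps, so these 3 levels are uncertain to that extent.

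With the 6 libraries together, Foxd1 had the largest fold of the tested members and ranked 70 of the 1026 genes called higher. The gene (mm10 chromosome 13, 98354242 to 98359305; 1 exon) stood at 0.467, 0.110 and 0.304 FPKM in NC and at 2.07, 6.99 and 2.64 FPKM in MF. MF replicate 2, the lowest MF library for most genes, was by far the highest for Foxd1, with 595 counts against 201 and 218. Foxd1 rose 13.2-fold, from 0.294 ± 0.178 to 3.90 ± 2.69 FPKM (log2 fold change 3.73, SE 0.71, adjusted p = 0.0111). That size depended on the 1 library: without MF replicate 2 the rise was 7.996-fold and still called (adjusted p = 0.00713), and without both replicate 2 libraries, a setting in which 62.2% of tested genes were called higher, it was 6.08-fold. In both settings Foxc2 had the larger fold, at 10.5 and 8.01. Dcx, the only neural marker of 10 in the table, was also highest in MF replicate 2, at 0.144, 1.62 and 0.403 FPKM in MF and at most 0.0794 FPKM in NC. Dcx averaged below 0.5 FPKM and was not tested for a difference. The part of neural cells in the Foxd1 values was not tested.

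Foxd2 (mm10 chromosome 4, 114906282 to 114908873; 1 exon), a relative expressed in mesenchyme, had 13, 2 and 10 counts in NC and 72, 70 and 67 counts in MF. Its 3 MF levels, 1.45, 1.61 and 1.59 FPKM, were the most even of any member, with a coefficient of variation of 5.60%, against a median of 33.4% for the genes called higher. At 67 to 72 counts, counting error alone could give a wider spread, so this evenness is not read as a trait of the gene. In NC it stood at 0.320, 0.0479 and 0.258 FPKM. Foxd2 rose 7.34-fold (log2 fold change 2.88, SE 0.74, adjusted p = 0.0190). The FPKM ratio of Foxd1 to Foxd2 was 4.35 in MF replicate 2 and between 1.18 and 2.30 in the other 5 libraries (exact permutation p = 0.6 between groups).

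Foxa1 had the smallest ratio of lowest MF to highest NC level among the members, and in NC its mean was close to that of Foxp1. The gene (mm10 chromosome 12, 57540628 to 57546916) stood at 1.11, 1.38 and 3.24 FPKM in NC and at 3.43, 8.25 and 5.41 FPKM in MF. The lowest MF library was 1.06 times the highest NC library, and like Foxd1 the gene was highest in MF replicate 2. Foxa1 rose 2.98-fold, from 1.91 ± 1.16 to 5.70 ± 2.42 FPKM (log2 fold change 1.57, SE 0.56, adjusted p = 0.0301). The call was lost without MF replicate 2 (adjusted p = 0.0654), MF replicate 3 (0.0935), NC replicate 1 (0.0877) or NC replicate 2 (0.0668), and without NC replicate 3 the fold was 4.56. Of 18 listed endoderm genes 1, Gata6, is in the table. Gata6, a zinc finger factor of endoderm and heart, stood at 0.981, 2.93 and 2.78 FPKM in NC and at 25.9, 2.19 and 23.3 FPKM in MF. In MF replicate 2, where Foxa1 was highest, Gata6 was within its NC range. None of the 10 endoderm markers is in the table, so the endoderm content of these libraries was not analysed here.

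Foxp1 had the smallest fold of the members tested and the steadiest NC level. The gene (mm10 chromosome 6, 98925338 to 99522721; 31 annotated transcripts) stood at 2.19, 1.65 and 1.75 FPKM in NC and at 5.39, 3.37 and 5.79 FPKM in MF. Its NC coefficient of variation was 15.5%, against 59.3% to 96.5% for the other tested members. Foxp1 rose 2.60-fold, from 1.86 ± 0.288 to 4.85 ± 1.30 FPKM (log2 fold change 1.38, SE 0.39, adjusted p = 0.0220), and without MF replicate 1 the adjusted p was 0.0591. In NC its level exceeded that of Foxc2 by 3.23, 7.25 and 1.82 times, and in MF the ratio was 0.719, 0.947 and 1.03. The groups did not overlap in this ratio. The exact permutation p was 0.1, the smallest possible, and 0.35 after Benjamini-Hochberg adjustment over the 7 ratios compared. This shift largely restates the gap between the log2 fold changes of Foxp1 (1.38) and Foxc2 (3.16) in the same libraries.

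Foxp2 (mm10 chromosome 6, 14901349 to 15441977) was the least abundant member and fell below the filter on low levels, with 18, 0 and 16 counts in NC and 43, 80 and 90 counts in MF. In FPKM it stood at 0.0703, 0 and 0.0656 in NC and at 0.137, 0.291 and 0.338 in MF. The count of 0 in NC replicate 2 allows up to 0.0114 FPKM (3 counts). Fitted without the filter, the fold was 5.61 (log2 fold change 2.49, SE 0.99, adjusted p = 0.0342 over all named genes by edgeR). In MF it averaged 0.256 ± 0.105 FPKM, below Foxd2, the next member in order, at 1.55 ± 0.0867 FPKM.

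**Figure D2:**
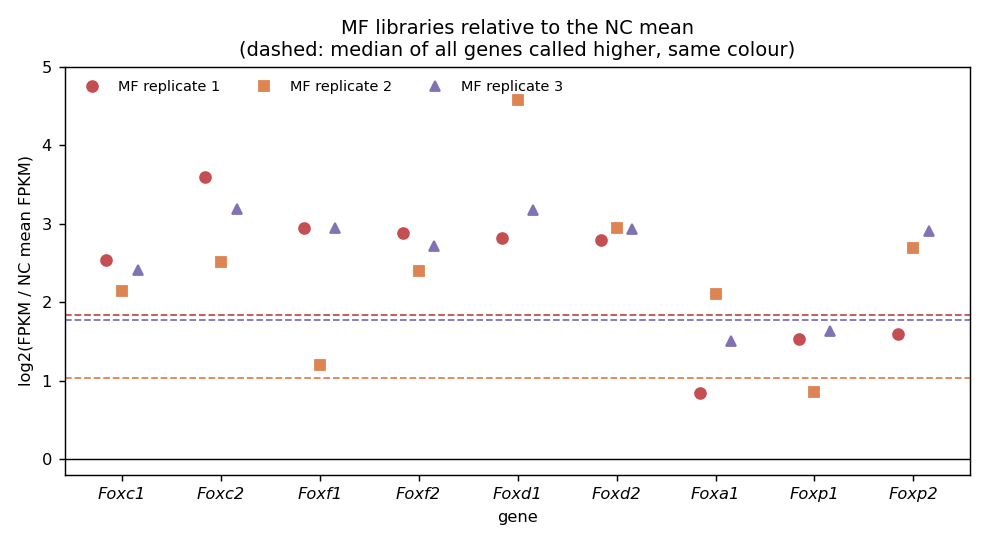
Level of each forkhead gene in MF replicates 1 to 3 as log2 of its FPKM over the NC mean FPKM; dashed lines give the median of the 1026 genes called higher in the same library (1.83, 1.04 and 1.77). MF replicate 2 (squares) is above the other MF libraries for Foxd1 (4.57), Foxa1 (2.11) and, narrowly, Foxd2 (2.94), and well below them for Foxf1 (1.20) and Foxp1 (0.85).

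The members differed in their order across the exposed libraries. In 5 of 9 members (Foxc1, Foxc2, Foxf1, Foxf2 and Foxp1) MF replicate 2 had the lowest MF level, against 83.2% of the genes called higher, and it was the highest for Foxd1, Foxd2 and Foxa1, against 8.09%. NC replicate 2 was the lowest NC library for 8 of 9 members, with Foxa1 as the exception. The members' median log2 ratio to the NC mean was 2.81, 2.27 and 2.82 in MF replicates 1 to 3, and the median of the genes called higher was 1.83, 1.04 and 1.77.

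Summed over the 9 members, the forkhead level was 7.51, 3.98 and 11.7 FPKM in NC replicates 1 to 3 and 39.5, 34.2 and 40.0 FPKM in MF replicates 1 to 3. The 3 MF sums lay close together although their makeup differed. Foxf1 held 24.4% and 24.1% of the sum in MF replicates 1 and 3 and 8.35% in MF replicate 2, where Foxa1 held 24.1% and Foxd1 20.4%. In NC, Foxp1 held the most in replicates 1 and 2, at 29.2% and 41.5%, and Foxa1 in replicate 3, at 27.7%. The sum was 4.91 times higher in MF (7.72 ± 3.86 against 37.9 ± 3.18 FPKM, SD, n = 3). Each of the 9 members was already higher in every MF library than in any NC library, so the sums could not overlap. The exact permutation p of 0.1, the smallest possible, was therefore fixed beforehand and adds nothing.

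**Figure D3:**
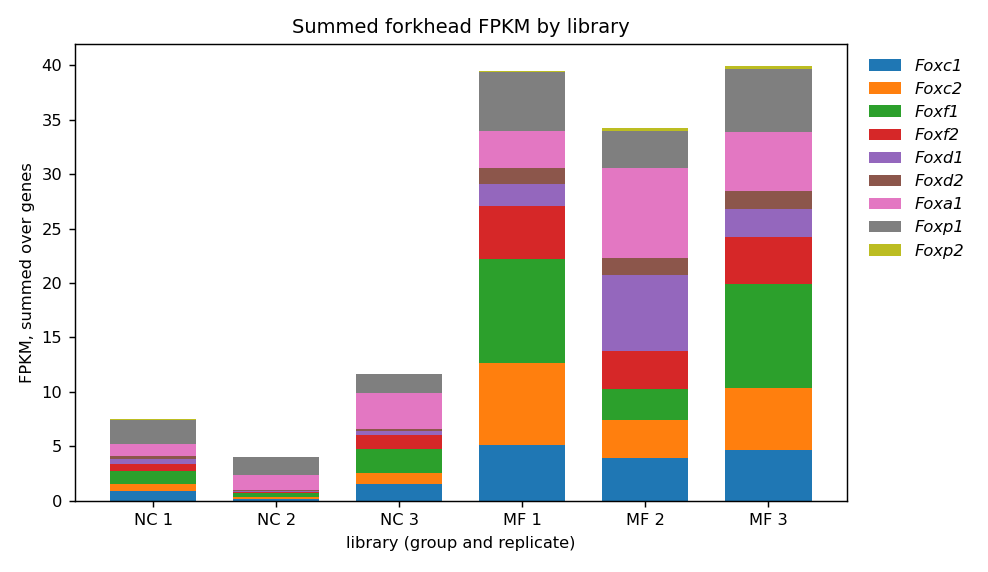
FPKM summed over the 9 forkhead genes in each library, with 1 colour per gene and bars starting at 0. The MF sums lie between 34.2 and 40.0 FPKM and the NC sums between 3.98 and 11.7 FPKM, and MF replicate 2 has less Foxf1 and more Foxd1 and Foxa1 than the other MF libraries.

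By mean level the order in NC was Foxa1, Foxp1, Foxf1, Foxc1, Foxf2, Foxc2, Foxd1, Foxd2 and Foxp2. In MF it was Foxf1, Foxa1, Foxc2, Foxp1, Foxc1, Foxf2, Foxd1, Foxd2 and Foxp2. In both groups the only neighbours whose means differed by more than the larger of their SDs were Foxd2 and Foxp2, so by this measure the order of the other neighbours is not settled. In MF, Foxd2 nevertheless lay below the 7 more abundant members in all 3 libraries, with a highest value of 1.61 FPKM against their lowest of 2.07 FPKM.

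Other transcription factor families in the table differed in their direction. Of 60 homeobox genes 54 were higher in MF, of 8 T-box genes 7, of 13 bHLH genes 11 and of 5 genes labelled THR-like 5, but of 61 C2H2 zinc finger genes 38. Over the 218 genes with another family label 72.9% were higher, and among 1803 genes without a label 61.9%. The median log2 fold change of tested homeobox genes was 2.52 and of T-box genes 2.77, against 2.62 for the forkhead members. Of 8 HMG genes 5 were higher (62.5%). Among the 5 HMG genes tested, 2 were called higher and 3 lower, with a median of -1.14. No difference between families was tested.

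For each tested member, the gene with the most similar profile was sought among the 189 tested genes with a family label, as the smallest root mean square difference of log2(FPKM + 0.1) over the 6 libraries after centring each gene on its NC mean. The nearest to Foxf2 was Isl1, a homeobox factor of the second heart field, at 0.148 log2 units, and the nearest to Foxc2 was Tbx1, a T-box factor of the pharyngeal region, at 0.351. Foxf1 was nearest to Mecom (0.183), Foxc1 to Irx5 (0.242), Foxd2 to Zfhx4 (0.189) and Foxp1 to Zbtb4 (0.0946). Foxd1 and Foxa1 had the most distant neighbours, Ferd3l at 0.600 and Ebf4 at 0.505. These likenesses are descriptions over 6 libraries, among genes that had been chosen for a difference between the groups.

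Genes that work with the members were taken from lists. Of 24 listed regulators of paraxial and head mesoderm and the second heart field, the setting of FoxC genes, 13 are in the table and 13 were higher in MF. The 12 tested genes rose, with a median log2 fold change of 2.83, in a table where 62.1% of tested genes were called higher with 97.5% called either way and a median of 1.22 over all tested genes. Alx4, a homeobox factor of limb and skull, rose 17.1-fold, and it stood at 3.90, 0.329 and 3.88 FPKM in MF. Twist1, a bHLH factor of mesenchyme, rose 13.5-fold from 3.77 ± 1.77 to 50.9 ± 29.1 FPKM. Meox1, a homeobox factor of somites, rose 12.01-fold and stood at 2.50, 3.21 and 4.49 FPKM in MF, and Pax1, a factor of the sclerotome, rose 10.3-fold. Twist1 and Alx4 were lowest in MF replicate 2, as Foxc1 and Foxc2 were.

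Of 22 listed genes of hedgehog signalling and foregut mesenchyme, the setting of FoxF genes, 9 are in the table, and the 9 rose with a median log2 fold change of 1.94, against the same background of 62.1% called higher and a median of 1.22. Gas1, a hedgehog co-receptor, rose 5.61-fold from 10.6 ± 3.94 to 59.7 ± 21.8 FPKM. Tbx5, a T-box factor of heart and forelimb, rose 62.5-fold, and its MF levels were 2.53, 0.178 and 3.67 FPKM. Wnt2, a secreted signal of lung and heart mesoderm, rose 47.6-fold, with 11.8, 0.264 and 11.6 FPKM in MF and overlapping groups. Tbx4, of lung and hindlimb mesenchyme, rose 5.86-fold and its groups also overlapped. In MF replicate 2, Tbx5, Wnt2 and Foxf1 were far below the other MF libraries, while Foxf2 was only slightly lower.

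Of 21 listed endothelial genes 7 are in the table; 6 rose, among them Kdr, a receptor of vascular growth factor (5.83-fold), Hey2, a Notch target (6.71-fold), Cd34 (4.56-fold) and Cdh5, an endothelial cadherin (3.28-fold), and Pecam1, an adhesion molecule of endothelium, fell 2.75-fold, with 8.43, 38.2 and 8.75 FPKM in NC and 6.41, 7.93 and 5.81 FPKM in MF. The median log2 fold change was 1.71, and 62.1% of tested genes were called higher. Of 18 listed genes of renal stroma and pericytes, the setting of Foxd1, 7 are in the table and rose, with a median of 1.84 against 1.22 over all tested genes, of which 62.1% were called higher. Osr1, a zinc finger factor of intermediate mesoderm, rose 6.58-fold and stood at 2.52, 2.42 and 2.68 FPKM in MF. Pdgfra, a growth factor receptor of mesenchyme, rose 10.8-fold and stood at 13.1, 1.95 and 11.5 FPKM in MF, and Rgs5, a pericyte gene, rose 8.15-fold. Neither Pdgfra nor Rgs5 was highest in MF replicate 2, as Foxd1 was.

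Other forkhead settings had few genes in the table. Of 22 listed FoxO targets 3 are there: Igfbp1, an insulin-like growth factor binding protein, rose 34.9-fold, Cdkn1b, a cell cycle inhibitor, rose 2.10-fold and Klf2, a zinc finger factor, fell 3.21-fold. Igfbp1 averaged 0.222 FPKM in NC and stood at 3.66, 1.95 and 18.3 FPKM in MF, with replicate 3 far above the other MF libraries. Of 19 listed motile cilia genes 3 are there, of which Tekt1 and Rfx2 fell 4.81-fold and 4.43-fold. The third, Dnah11, was below the filter and not tested, and stood at 0.0619, 0.0429 and 0.0232 FPKM in NC and at 0.0794, 0.161 and 0.187 FPKM in MF. Of 13 listed FoxP partners 2 are there, and Gata6, given above, rose 7.69-fold. Of 20 listed mitotic genes linked to Foxm1, 0 are in the table.

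**Figure D4:**
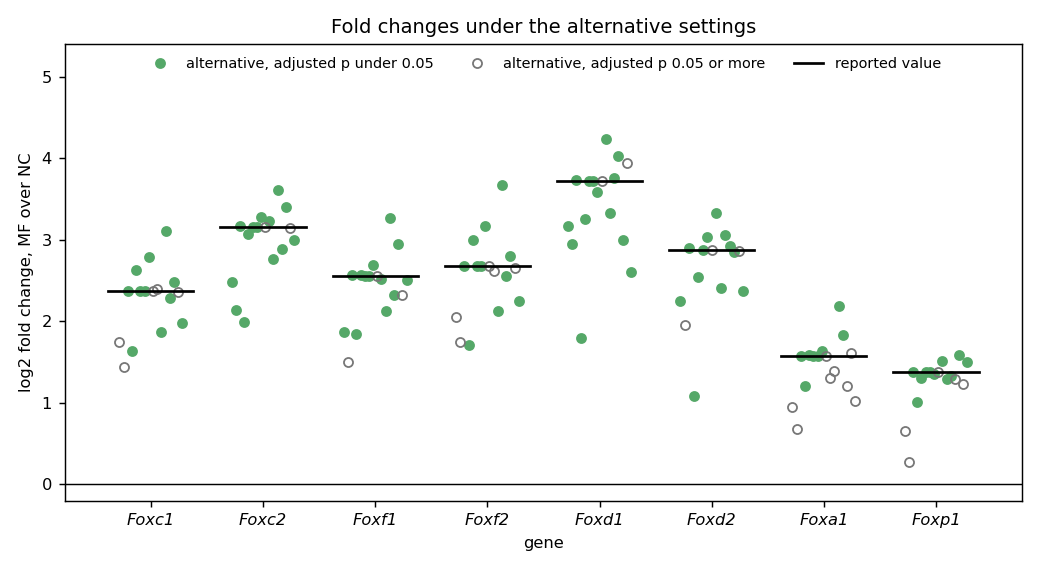
Log2 fold change (MF over NC) of the 8 tested forkhead genes under each alternative setting; the black line is the reported value, filled points have an adjusted p under 0.05 and open points do not. Every point is above 0, and Foxa1, with 8 open points of 16, is the member whose call was lost most often.

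The calls of the members depended on which libraries and which scaling entered the fit. Leaving out MF replicate 3, edgeR called 0 of 8 members (0.727% of tested genes higher), although 8 had an unadjusted p under 0.05 and their folds moved by at most 1.18 times. Leaving out NC replicate 1 left 5 called, with 641 of 1651 tested genes called in either direction. Scaling on the selected genes themselves with TMM factors lowered the median log2 fold change by 0.70 and left 4 members called (17.6% of tested genes higher), and median-of-ratios factors lowered it by 1.05 and left 2, Foxc2 and Foxd1 (9.57%). With the replicate number as a block, 8 members and 62.4% of tested genes were called higher. Relative to those shifts, Foxd1 (2.95) and Foxc2 (2.14) still lay above the median of tested genes under median-of-ratios factors (0.16), Foxp1 (0.28) lay near it, and 0 members reversed. With adjustment for 19069 tests, the number that the authors' p-values imply, edgeR called 0 members with a smallest adjusted p of 0.128. DESeq2 called 7 members there, and 598 of 1651 tested genes in either direction.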

How the data were processed

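Poly-A RNA was sequenced from 3 NC and 3 MF libraries, per the labels' protocols. The submitters' processing notes list HISAT2 2.0.5, featureCounts and mm10, and no source used here gives settings or strand use. Per the file headers, each deposited file gives raw counts per gene, FPKM, gene length and, from the authors' comparison, a log2 fold change with its p-value before and after adjustment, and the deposited column without a unit is a normalized signal equal to the count divided by a constant of the library. Library totals were recovered from the authors' counts, FPKM and gene length. Counts limit precision at low levels, and the floor of 3 counts covers counting error only.

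Counts of 1651 named genes averaging 0.5 FPKM or more were tested with edgeR 4.0.16 (R 4.3.3; quasi-likelihood, library sizes set to the recovered totals, no term but group, two-sided, Benjamini-Hochberg adjustment over those genes at 0.05). The 48 rows with no gene name stayed out. They and the 332 named genes below the filter were not tested. The steps were tested on simulated data. Since the genes had been selected on these libraries, the adjusted values hold within this table only. The p-values measure the spread between these libraries. The members and lists were chosen with earlier results of these data known. Every member is named. From each list up to 4 called genes with the largest fold are named, with Pecam1 and Dnah11 added after their values were seen. Dcx was neither tested nor called and is named outside this rule. Alternatives used DESeq2 1.42.0, limma 3.58.1 on log2(FPKM + 1) or log2(FPKM + 0.1), other scalings and filters, a replicate block and left-out libraries.

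To check pairing, each library's deviation from its group mean was correlated with that of its namesake, giving 0.386, 0.554 and 0.320 for numbers 1 to 3, so the numbers were taken as pairs for the block. No label states such a pairing, and NC replicate 3 correlated more with MF replicate 1 (0.545). No replicates agreed within sampling noise (chi-square per degree of freedom of at least 23.1).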

Additional observations from a re-analysis of the deposited data

How the results depend on the processing

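Under the 16 alternatives the 8 tested members kept a positive fold change, or 7 of them where the filter at 2 FPKM left out Foxd2. The count of members called higher moved by over 1.5 times with TMM factors (4), median-of-ratios factors (2) and the adjustment over 19069 tests (0), and leaving out 1 library gave between 0 (MF replicate 3) and 8. The count of members called lower was 0 under every alternative. The 1610 tested genes called became 880 with TMM factors, 665 with median-of-ratios factors, 980 with a filter at 2 FPKM (1034 tested) and 0 with the adjustment over 19069 tests, and leaving out 1 library gave between 12 and 1578. Of the calls, 63.7% were higher in MF, against 33.1% with TMM factors and 23.8% with median-of-ratios factors, which are computed on genes selected for a difference. With the replicate number as a block, 8 members and 1620 genes were called, and the block changed no call of a member. Over 19069 tests the block called 3 members, and 504 of 1651 tested genes in either direction. The cause of the lost calls was not tested. The low counts of Foxd2, Foxf2 and Foxp2 in NC limit how well their folds are known.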
